A study of Ovis aries with 18 samples.

Results

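The genes of oxidative phosphorylation were taken from a table of allele counts by gene symbol, with no use of the counts. Earlier results of these data were known when this choice was made. The rule took every SNP off the X chromosome whose gene symbol begins with NDUF, SDHA to SDHD, UQCR, UQCC, COX or COA with a digit, SCO with a digit, ATP5, or ETFA, ETFB or ETFD, together with CYC1, CYCS, SURF1 and BCS1L. It found 143 SNPs in 49 genes, of 24,355 SNPs in 5,810 genes, on 21 chromosomes of the sheep build Oar v3.1. Of the 49 genes, 20 held 1 SNP and 7 held 5 or more.

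RNA was sequenced from the perirenal adipose tissue of 18 sheep fetuses at day 132 of gestation, 16 female and 2 male. All were singletons, pure bred merino, wild type and untreated, with a common sire and unrelated ewes, and they form a single group, so nothing was compared between conditions. The table gives, at each SNP, the reads with the reference allele, the reads with the alternate allele and the genotype called in each fetus, and the comparison asks whether the alleles of heterozygous fetuses gave unequal numbers of reads. Each fetus had between 2,970,824 and 5,334,585 reads over all SNPs of the table.

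Oxidative phosphorylation passes electrons from NADH, succinate and the electron transfer flavoprotein through complexes I to IV of the inner mitochondrial membrane, and the protons pumped on the way drive ATP synthase. Brown fat, which surrounds the kidney of the fetal lamb, is rich in mitochondria, and its uncoupling protein UCP1 lets protons return without making ATP, so that the energy leaves as heat. The respiratory complexes hold many subunits and need assembly factors that insert metal centres, haem and membrane segments.

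The labelled tissue was checked by marker genes, of which only those holding a SNP can be seen. Of 7 brown adipocyte markers 5 held a SNP, and UCP1 was the deepest with a mean of 10,468 reads per SNP and fetus. The other 4 had 476.6 (CIDEA), 405.5 (EBF2), 146.6 (DIO2) and 116.2 (PPARGC1A). The mean reads per SNP over that list ran from 2,313 in the lowest fetus to 6,334 in the highest, with a median of 3,372, and ELOVL3 and PRDM16 held no SNP. Of 8 adipocyte markers 4 held a SNP, with ADIPOQ the deepest at 10,812 reads, while FABP4, LIPE, LPL and PPARG held none, so a marker with no SNP is not shown to be absent. Of 9 muscle markers 1 held a SNP (MB, 28.4 reads), of 4 of the adrenal cortex 1 (STAR, 48.7 reads), of 5 of blood and immune cells 1 (CD163, 26 reads) and of 6 of the kidney tubule 0. Of 4 endothelial markers 3 held a SNP, at 320.9 reads for CDH5, 283.9 for KDR and 255.1 for VWF, which is deeper than DIO2 and PPARGC1A. In bulk tissue, fewer cells of a type and less RNA per cell cannot be told apart.

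The oxidative phosphorylation genes were read deeply. They took between 4.49% and 5.89% of the reads of a fetus, with a median of 4.98%. The median member SNP had 879.8 reads per heterozygous fetus, against 65 over all tested SNPs. Each fetus was heterozygous at between 58 and 101 member SNPs, with a median of 73.5, and the highest numbers were in replicates 8 and 18.

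Allelic imbalance was common in these genes, and most of it was small. At 6 SNPs no fetus was heterozygous. At the other 137, the reads of all heterozygous fetuses were summed, and a SNP was called when the likelihood ratio test against equal shares gave a p under 0.05 after Benjamini-Hochberg adjustment over all 24,244 tested SNPs. Of the 137, 90 were called, or 65.7%, against a background of 38% of all tested SNPs. With reads sampled to 50 per fetus 42 were called, or 30.7%, against 26.3% of all SNPs. The reference allele was higher at 71 (51.8% of the tested members, background 28.9%) and the alternate allele at 19 (13.9%, background 9.01%). Against the median share of all SNPs in place of equal shares, 84 were called and the split became 45 with the reference allele higher and 39 with the alternate allele higher. The backgrounds of 38%, 28.9% and 9.01% are those against equal shares and do not apply to these counts, so these SNP counts are not set against all SNPs. By gene, 34 of 47 had a SNP called against the median share (72.3%, against 54.3% of all tested genes). Among genes with a SNP of at least 200 reads 27 of 34 did (79.4%, background 81.9%). The test on summed reads measures counting error only, so a moderated quasi-binomial F test that widens the error by the spread between fetuses was run beside it. It called 74 of the 137 (background 24.5%), and all 74 were among the 90.

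Depth goes with these counts. Among SNPs with at least 200 reads per heterozygous fetus, 67 of 83 members were called (80.7%), against 65.9% of all such SNPs, and the F test called 56 (67.5%, background 49.8%). Among shallower SNPs, 23 of 54 were called (42.6%, background 33.3%), and the F test called 18 (33.3%, background 20.3%). The part of depth in the difference between members and other SNPs of the same class was not tested. Counted by gene, 33 of 47 tested genes had a called SNP (70.2%, background 58.5%). Among genes with a SNP of at least 200 reads, 27 of 34 did (79.4%), which is below the background of 84.8%.

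Called members lay closer to 50% than called SNPs at large, and tested members did not. The median distance from 50% was 4.23 percentage points over called members, against 7.60 over all called SNPs, where deeper SNPs can be called at smaller distances. Over all tested SNPs, called or not, it was 3.48 points for members and 3.39 for all SNPs. Deep members lay at a median of 2.53 points (3.15 for all deep SNPs) and shallower members at 4.21 (3.44 for all shallower SNPs). Of the 90, 49 lay within 5 points of 50% (54.4%, against 22.4% of all called SNPs). Only 16 of the 137 were called and lay more than 10 points away (11.7%, background 12.1%), and among deep SNPs 6 of 83 did (7.23%, background 14%). The median member SNP had 51.9% of its reads from the reference allele, and so did the median over all tested SNPs. Among called SNPs with at least 5 heterozygous fetuses, every such fetus lay on the same side of 50% at 50 of 88 members (56.8%, background 33.7%), and the part of depth in this was not tested.

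**Figure D1:**
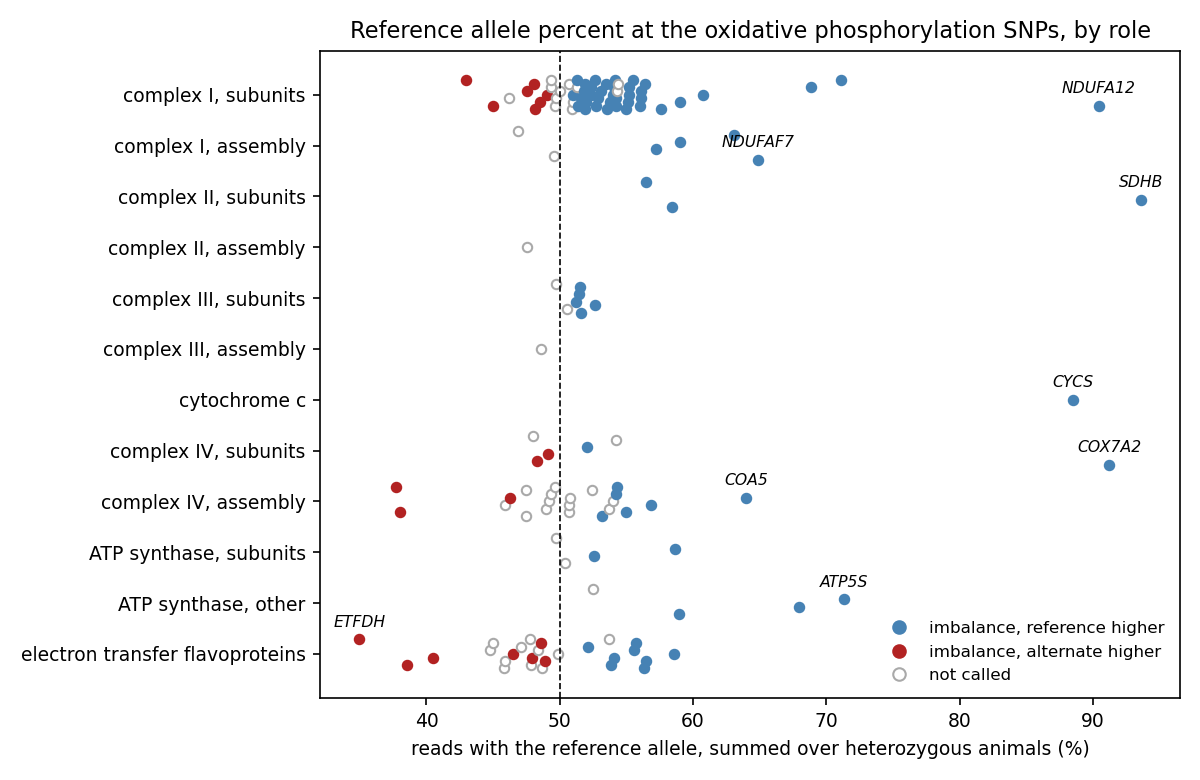
Percent of reads with the reference allele, summed over heterozygous fetuses (horizontal axis), at the 137 tested SNPs by role (vertical axis), where each point is 1 SNP, blue when called with the reference allele higher, red with the alternate allele higher and open when not called, with the dashed line at 50%. Most points lie near 50%, and SDHB (93.6%), COX7A2 (91.2%), NDUFA12 (90.4%) and CYCS (88.5%) lie far to the right. At SDHB, COX7A2 and NDUFA12 some fetuses called homozygous reference, not shown, lay near or among the heterozygous ones.

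The fetuses lay within a few points of each other in the sum over these genes. The summed reference share over heterozygous members ran from 51.3% to 54.7%, with a median of 52.4% and a mean of 52.7% ± 0.828 (SD, n = 18). It was lowest in replicate 16 and highest in replicate 6. Over all SNPs of the same fetuses the share ran from 53.4% to 54.3%. Within a fetus the share over the members was the lower in 16 of 18, all but replicates 2 and 6, and the share over all SNPs exceeded it by a mean of 1.21 ± 0.877 points (SD, n = 18). Deep SNPs weigh most in such a sum. By the median over the SNPs of a fetus, the members were lower in 11 of 18, and the share over all SNPs exceeded theirs by a mean of only 0.148 ± 0.549 points (SD, n = 18). At single SNPs the fetuses differed more. The reads of 41 of 136 members with at least 2 heterozygous fetuses differed between fetuses (30.1%, background 15.4%; Pearson chi-square test, adjusted over all such SNPs). At SNPs with at least 200 reads 30 of 82 members differed (36.6%), near the background of 35.1% at that depth, and with reads sampled to 50 per fetus 3 of 136 did (2.21%, against 5.44% of all SNPs).

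SNPs of 1 gene share fetuses and often reads, so they are not independent, and phase was not determined, so reference alleles of neighbouring SNPs need not lie on the same chromosome copy. Genotypes were called from the same RNA reads that were counted. Values below are percentages of reads with the reference allele, and adjusted p-values are those of the F test unless said otherwise.

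Complex I, which takes electrons from NADH, gave the most SNPs. Of 56 tested SNPs in its 17 subunit genes 44 were called (78.6%, background 38%, and 39 of 48 deep SNPs, background 65.9%), 37 with the reference allele higher and 7 with the alternate, and the F test called 36. With the median share of all SNPs as null, to which these backgrounds do not apply, 36 were called, 23 with the reference allele higher and 13 with the alternate. The genes NDUFA6, NDUFB4, NDUFS4 and NDUFV3 had no called SNP.

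NDUFV1, the flavoprotein subunit that accepts electrons from NADH, held 9 SNPs within 3,155 bp of chromosome 21, and all 9 were called, 6 with the reference allele higher and 3 with the alternate. At the synonymous SNP at position 44748012 the 11 heterozygous fetuses ran from 66.7% to 71.4% with a median of 69.2% (mean 69.1% ± 1.54, SD), at 2,322 reads per fetus. All 11 lay above 50% and close together (adjusted p = 6.84e-19; exact sign-flip permutation p = 0.000977, two-sided, the smallest that 11 fetuses allow). At position 44747961, 51 bp away, the same 11 fetuses ran from 40.5% to 45.0% with a median of 42.6%. All 11 lay below 50% (adjusted p = 1.03e-11), and within a fetus the reference shares at these neighbouring SNPs differed by 26.2 ± 2.81 points (SD, n = 11). The 6 fetuses homozygous reference at 44748012 were homozygous alternate at 44747961, and replicate 14 was the reverse. By these calls the reference allele at 44748012 goes with the alternate allele at 44747961. These paired alleles were both the higher, so the 26.2 points compare unlike copies and are no measure of disagreement. The summed shares of the 9 SNPs ran from 43.0% to 71.1%.

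The largest share in NDUFV1 was at position 44748018, 6 bp from 44748012, with 71.1% in 5 heterozygous fetuses. There 4 fetuses lay between 72.2% and 74.3%, and replicate 14 stood apart at 60.7%. Replicate 14 was also the only fetus called homozygous for the alternate allele at 44748012. Depth at 44748012 differed by genotype: the 6 homozygous reference fetuses had 2,956 to 4,760 reads, the 11 heterozygous 1,734 to 2,849, and the homozygous alternate fetus 1,481. The first 2 groups did not overlap in reads. This is a description made after the values were seen and not scaled to library depth, and its part in the shares was not tested.

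NDUFA10, an accessory subunit of the membrane arm, held 9 SNPs within 381 bp of chromosome 1, of which 8 lie in the 3′UTR. All 9 were called with the reference allele higher, at 51.6% to 60.7%, and the F test called 7. The largest was at position 1523053, where 12 heterozygous fetuses ran from 56.0% to 65.3% with a median of 60.4% (mean 60.6% ± 3.09, SD). All 12 lay above 50% (adjusted p = 2.87e-10; exact permutation p = 0.000488, the smallest that 12 fetuses allow), with replicate 3 highest and replicate 17 lowest. All 9 SNPs also differed between fetuses.

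NDUFA12, an accessory subunit of the peripheral arm, had the largest share of complex I. At the synonymous SNP at position 131074982 of chromosome 3 the 5 heterozygous fetuses ran from 86.4% to 93.3% with a median of 89.9% (mean 90.2% ± 2.58, SD), at 171.4 reads per fetus. All 5 lay above 50% (adjusted p = 1.63e-10; the exact permutation p of 0.0625 is the smallest that 5 fetuses allow). The 5 fetuses called homozygous reference ran from 94.5% to 100% in the same measure, so 3 of them stood little above the highest heterozygous fetus. Reads at this SNP were fewest in the 8 homozygous alternate fetuses, at 22 to 42. They ran from 138 to 218 in the heterozygous fetuses and from 163 to 502 in the homozygous reference ones, and these ranges overlap. The overlap comes from the 3 homozygous reference fetuses that held alternate reads, at 163 to 181 reads. Replicates 8 and 13, with 0 alternate reads, had 337 and 502. This description was made after the values were seen, with no scaling to library depth, and its part in the share was not tested. The other SNP of the gene, at position 131047614, gave 51.9% in 8 fetuses. In the 4 fetuses heterozygous at both, the shares differed by 38.4 ± 3.01 points (SD).

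**Figure D2:**
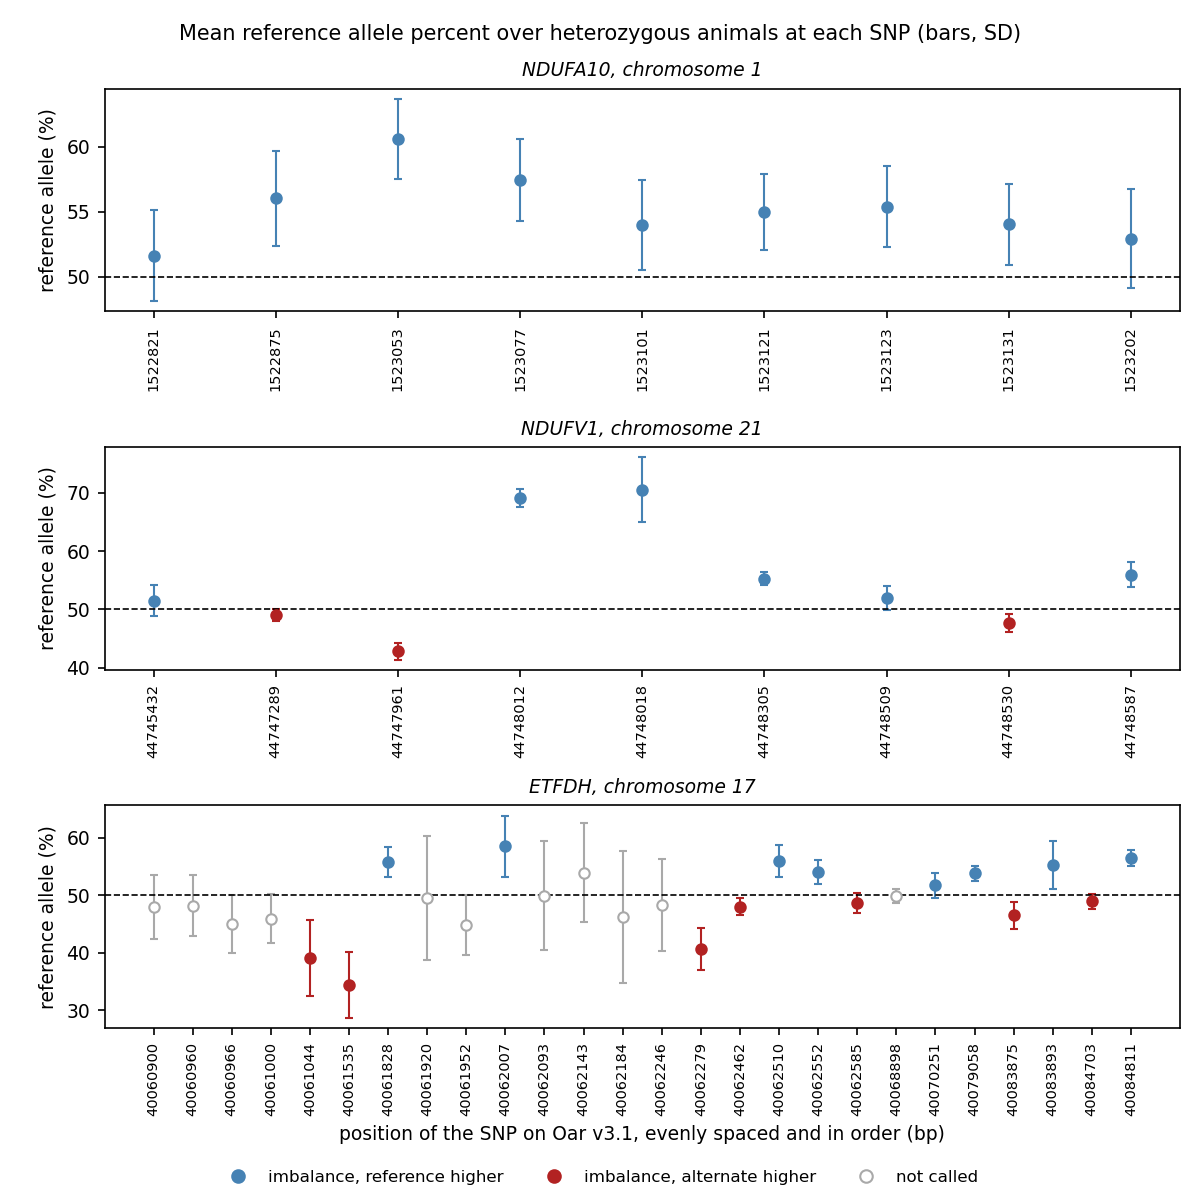
Mean percent of reads with the reference allele over heterozygous fetuses (vertical axis; bars, SD) at each SNP of NDUFA10, NDUFV1 and ETFDH, in order of position on Oar v3.1 (horizontal axis, evenly spaced) in blue when called with the reference allele higher, red with the alternate allele higher and open when not called. All 9 SNPs of NDUFA10 lie above 50%, while NDUFV1 and ETFDH have called SNPs on both sides of it.

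Among the core subunits of the iron-sulfur fraction, shares lay close to 50%. NDUFS8 held 6 SNPs within 7 bp of chromosome 21, all heterozygous in all 18 fetuses, and all were called, 5 with the reference allele higher and 1 with the alternate, at 48.1% to 55.0%. At the missense SNP at position 44845116 the 18 fetuses ran from 52.8% to 58.1% with a median of 54.9% (mean 55.0% ± 1.82, SD). All 18 lay above 50% (adjusted p = 3.08e-10; permutation p = 2e-05, the smallest the resamples can give). Along this cluster the alternate reads hardly changed while the reference reads fell. In replicate 1 they were 577 and 671 at 44845116, and 578 and 514 at 44845123, where the summed share was 48.1%. The direction at the missense SNP thus does not hold for the whole cluster, and the cause was not tested. NDUFS3 gave 53.5% with 7 of 7 fetuses above 50% (adjusted p = 0.000578). NDUFS1 was called in both directions, at 48.1% and 52.4%.

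NDUFS7, a core subunit that carries an iron-sulfur cluster, held the splice donor SNP of these genes, at position 41213318 of chromosome 5. It was heterozygous in all 18 fetuses, which ran from 29.2% to 59.2% with a median of 44.4% (mean 44.7% ± 8.22, SD), at 47.6 reads per fetus. Replicate 15 was highest and replicate 1 lowest, 12 lay below 50%, 5 above and 1 at 50%. The summed share of 45.0% was called by the likelihood ratio test (adjusted p = 0.0109) but not by the F test (adjusted p = 0.0699; permutation p = 0.0155). Without replicate 1 it was 45.9% and no longer called (adjusted p = 0.0534). The SNP at position 41213316, 2 bp away and heterozygous in the same 18 fetuses, was not called. Of the 5 SNPs of this gene 4 were tested, with summed shares of 45.0% to 54.0%. Of these 2 were called, 1 in each direction, and the F test called 1. The largest called share with the reference allele higher in this gene was 54.0%, at position 41211985, in 8 of 8 fetuses above 50%. Position 41213330 was not called. Its reads ran from 230 to 424 in a fetus, against 29 to 72 at the nearby splice donor SNP, which thus rests on a small part of the reads. The cause of this difference in depth was not tested.

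NDUFS5, an accessory subunit, differed between fetuses while its summed shares lay near 50%. Its 4 SNPs had summed shares of 48.5% to 51.8%, 3 were called by the likelihood ratio test and 0 by the F test, and all 4 differed between fetuses. At position 13507233 of chromosome 1 the 6 heterozygous fetuses ran from 43.3% to 56.0%, with 3 on each side of 50%.

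The called SNPs of NDUFB5, NDUFB6, NDUFB8 and NDUFB10, accessory subunits, had the reference allele higher, at 51.4% to 59.0%. NDUFB5 gave 56.0% ± 1.12 (mean and SD) in 11 of 11 fetuses above 50% (adjusted p = 5.95e-11). NDUFB6 held 6 SNPs at 53.5% to 59.0%, of which 4 were called, all with the reference allele higher, and 5 of the 6 lie upstream of the gene. NDUFB8 had both SNPs called, the larger at 52.7% in 12 of 12 fetuses, and NDUFB10 gave 51.4% in 9 of 9 (adjusted p = 0.0131). The SNPs of NDUFA6 (49.4%), NDUFB4 (49.7%), NDUFS4 (49.6% and 51.0%) and NDUFV3 (50.7% and an equal count of each allele) were not called.

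Of the complex I assembly factors, NDUFAF7, a mitochondrial methyltransferase, held 5 SNPs on chromosome 3. Of these 4 were called, all with the reference allele higher and all by the F test too. At position 86766710 the 9 heterozygous fetuses ran from 54.0% to 73.8% with a median of 62.4% (mean 63.9% ± 7.44, SD). All 9 lay above 50% (adjusted p = 2.88e-05; exact permutation p = 0.00391, the smallest that 9 fetuses allow), and replicates 3, 4 and 10 stood above the other 6. The missense SNP at 86766530 gave 63.1% in 7 of 7 fetuses above 50% (adjusted p = 0.000538), while position 86773351 gave 46.9% and was not called. The shares at all 5 SNPs differed between fetuses. NDUFAF1, needed to build the membrane arm, gave 49.5% in 13 fetuses and was not called.

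Complex II, which oxidises succinate, was seen in SDHB, its iron-sulfur subunit, where all 3 SNPs were called with the reference allele higher. The F test called 2 of them. The missense SNP at position 248384537 of chromosome 2 had the highest share of all tested member SNPs. Its 6 heterozygous fetuses ran from 92.7% to 94.0% with a median of 93.8% (mean 93.6% ± 0.480, SD), at 374.7 reads per fetus (adjusted p = 2.06e-15, 6 of 6 above 50%; exact permutation p = 0.0312, the smallest that 6 fetuses allow). The 12 fetuses called homozygous reference ran from 93.5% to 97.0%, so the called genotypes overlapped in this share, and the alternate allele made up 5.18% of the reads of those 12. The heterozygous calls at this SNP thus do not stand apart from the homozygous ones by their reads. The synonymous SNP at 248399084 gave 56.5% in 17 of 17 fetuses above 50% (mean 56.5% ± 1.33, SD; adjusted p = 2.77e-15), at 1,947 reads per fetus. SDHAF1, which helps the iron-sulfur clusters into SDHB, gave 47.5% at 27.6 reads and was not called.

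Complex III, which passes electrons from ubiquinol to cytochrome c, had 5 of 7 tested subunit SNPs called (71.4%, with all 7 deep, near the background of 65.9% at that depth), at 51.3% to 52.7%. Against equal shares the reference allele was higher at these 5, and against the median share of all SNPs 0 of the 5 were called, while the other 2 were, with the alternate allele higher. UQCRC2, a core subunit, had 3 of 4 SNPs called at 51.3% to 51.6%, and its partner UQCRC1 gave 51.6% with 14 of 15 fetuses above 50% (adjusted p = 8.13e-05). The missense SNP of UQCRB, a subunit at the ubiquinone site, was heterozygous in replicate 2 only, with 52.7% (95% Wilson interval 51.0% to 54.4%, counting error only). It was called by the likelihood ratio test (adjusted p = 0.00718) and not by the F test (adjusted p = 0.0996), against the median share of all SNPs (adjusted p = 0.507) or with reads sampled to 50 (adjusted p = 0.211). UQCR10, a small subunit, gave 49.7% in 10 fetuses and was not called against equal shares, and neither was the assembly factor UQCC2 at 48.6%.

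Cytochrome c, the carrier between complexes III and IV, showed a large and even imbalance. At the synonymous SNP of CYCS at position 70703303 of chromosome 4 the 10 heterozygous fetuses ran from 87.3% to 89.3% with a median of 88.5% (mean 88.5% ± 0.570, SD), at 2,723 reads per fetus. They lay close together and far from the 8 homozygous reference fetuses, in which the alternate allele made up 0.0149% of reads. All 10 lay above 50% (adjusted p = 4.81e-26; exact permutation p = 0.00195, the smallest that 10 fetuses allow). The heterozygous fetuses had 2,020 to 3,585 reads here and the homozygous reference ones 3,717 to 6,085, which do not overlap. This was picked out after the values were seen, is not scaled to library depth, and its part in the share was not tested. CYCS held no other SNP.

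**Figure D3:**
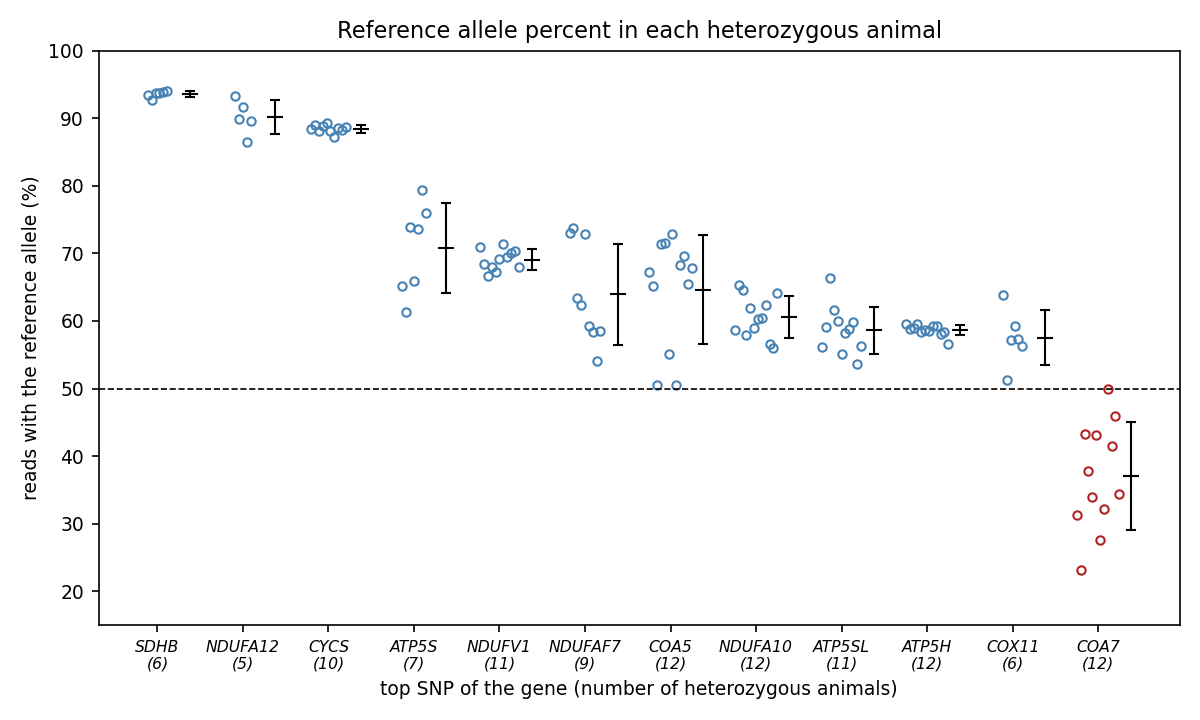
Percent of reads with the reference allele (vertical axis) in each heterozygous fetus (open points) at the SNP with the smallest p of its gene, for the 12 genes at which this SNP was called, had at least 5 heterozygous fetuses and lay farthest from 50%, with mean and SD beside the points and the number of fetuses under each gene. The fetuses of SDHB (92.7% to 94.0%), CYCS (87.3% to 89.3%) and ATP5H (56.7% to 59.6%) lie close together, those of COA5 (50.6% to 72.9%) far apart, and COA7 is the only gene shown with the alternate allele higher. At SDHB the fetuses called homozygous reference, not shown, overlap the heterozygous ones.

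Complex IV is cytochrome c oxidase, and 4 of the 6 tested SNPs in its subunit genes were called (66.7%, background 38%), 2 in each direction. These 4 were the deep SNPs of the 6, and the background at that depth was 65.9%. COX4I1, the widely expressed form of subunit IV, held the deepest member SNPs and gave 52.0% at position 11253887 of chromosome 14, where all 18 fetuses were heterozygous and ran from 50.7% to 53.2% with a median of 51.9% (SD 0.649), at 16,784 reads per fetus. All 18 lay above 50%, replicate 5 highest and replicate 18 lowest (adjusted p = 1.84e-12; permutation p = 2e-05, the smallest the resamples can give). Against the median share of all SNPs, 51.9%, the same SNP was not called (adjusted p = 0.117), nor with reads sampled to 50 per fetus (adjusted p = 0.244). At position 11250117 the summed share was 49.1%, and 11 fetuses ran from 48.2% to 52.2% with a median of 48.9%. There 10 of 11 lay below 50% and replicate 12 alone above (adjusted p = 0.0108; exact permutation p = 0.0312). With reads sampled to 50 this SNP was not called either (adjusted p = 0.497).

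COX5B, a subunit on the matrix side, gave 48.3% with 16 of 16 fetuses below 50% (mean 48.3% ± 0.758, SD; adjusted p = 1.59e-07). COX4I2, the other form of subunit IV, gave 48.0% at 62.3 reads and was not called. The SNPs of COX7A2 are placed on chromosome 14 by the table, and whether this locus is the gene itself or a related sequence was not checked here. The synonymous SNP at position 43974946 gave 91.2% in 2 heterozygous fetuses, at 90.8% in replicate 3 and 91.5% in replicate 5. The 16 homozygous reference fetuses had 4.59% of reads with the alternate allele, from 2.97% to 6.25%, so these genotypes stood little apart. A missense SNP 4 bp away was heterozygous in all 18 fetuses, at 54.3% and 24.2 reads, and was not called.

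The assembly factors of complex IV were shallower, and 9 of 22 tested SNPs in 10 genes were called (40.9%, near the background of 38%), 6 with the reference allele higher and 3 with the alternate. Against the median share of all SNPs, to which this background does not apply, the number called was again 9, but the split turned round. The reference allele was then higher at 3 and the alternate allele at 6. COA5, needed early in assembly, ran from 50.6% to 72.9% in 12 fetuses at position 102548545 of chromosome 3, with a median of 67.6% (mean 64.6% ± 8.01, SD). All 12 lay above 50% (adjusted p = 5.32e-05; exact permutation p = 0.000488), and replicates 4, 9 and 13 stood below the other 9.

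COA7, a factor of the intermembrane space, went the other way. At the 3′UTR SNP at position 26869926 of chromosome 1 the 12 heterozygous fetuses ran from 23.1% to 50% with a median of 36.1% (mean 37.0% ± 7.99, SD), at 43.3 reads per fetus. In all but replicate 13, which had equal reads, the alternate allele was higher (adjusted p = 0.000507; exact permutation p = 0.000977). The SNP 6 bp away, in the same 12 fetuses, gave 38.0%. The remaining SNP of the gene gave 52.5% and was not called.

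COX11, a copper carrier for the oxidase, had SNPs called in both directions 116 bp apart on chromosome 11. At position 4790289 its 6 heterozygous fetuses ran from 51.3% to 63.8% with a median of 57.3% (mean 57.5% ± 4.09, SD), all 6 above 50% (adjusted p = 0.00787; exact permutation p = 0.0312, the smallest that 6 fetuses allow). The missense SNP at 4790405 gave 46.3%, with 7 of 9 fetuses below 50%, and was not called by the F test (adjusted p = 0.0646). SCO2, which brings copper too, gave 55.0% with 9 of 10 fetuses above 50% (adjusted p = 0.00944). Its other SNPs gave 54.3%, called by the likelihood ratio test only, and 49.4%, not called. SURF1, linked to haem insertion, gave 53.2% with 14 of 17 above 50% (adjusted p = 0.00883) at 1 of its 3 SNPs. Those at 49.2% and 50.7% were not called.

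The missense SNP of COA1, an early assembly factor, gave 54.2% with 5 of 7 fetuses above 50% (mean 54.1% ± 4.20, SD) at position 77513216 of chromosome 4. The fetuses ran from 48.5% to 58.2% with a median of 56.0%, and replicates 6 and 18 lay below 50%. It was called by the likelihood ratio test (adjusted p = 0.0283) but not by the F test (adjusted p = 0.118; exact permutation p = 0.0938), against the median share of all SNPs (adjusted p = 0.274) or with reads sampled to 50 (adjusted p = 0.282). That call was lost without replicate 1, 4, 5 or 12, where the share was 53.7%, 53.3%, 53.5% and 54.0%. COX10, which acts in haem A synthesis, COX18, which inserts membrane segments, and COX20 and COA4 had no called SNP.

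ATP synthase was seen in 3 subunits. ATP5H, in the peripheral stalk, gave 58.7% at the synonymous SNP at position 55399695 of chromosome 11, where 12 fetuses ran from 56.7% to 59.6% with a median of 58.7% (SD 0.803), at 7,874 reads per fetus. All 12 lay above 50% and within a narrow band, with replicate 18 lowest (adjusted p = 4.12e-19; exact permutation p = 0.000488, the smallest that 12 fetuses allow). The missense SNP of ATP5J, another stalk subunit, gave 52.6% at position 128879539 of chromosome 1. Its 5 heterozygous fetuses ran from 51.9% to 53.4% with a median of 52.3% (mean 52.5% ± 0.651, SD), all 5 above 50% (adjusted p = 0.000468; the exact permutation p of 0.0625 is the smallest that 5 fetuses allow). The ATP5J call was lost against the median share of all SNPs (adjusted p = 0.161) and with reads sampled to 50 (adjusted p = 0.44).

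ATP5A1, the alpha subunit of the catalytic head, was among the deepest genes and was not called against equal shares. At position 46074032 of chromosome 23 the 6 heterozygous fetuses ran from 49.6% to 51.7% with a median of 50.3% (mean 50.4% ± 0.729, SD), at 9,813 reads per fetus, with 5 of 6 above 50%. At position 46075416 the same 6 ran from 48.9% to 51.4% with a median of 49.3% (mean 49.7% ± 0.980, SD), with 4 of 6 below. The likelihood ratio test gave adjusted p-values of 0.151 and 0.344 for these SNPs (exact permutation p = 0.156 and 0.5). Against the median share of all SNPs, 51.9%, both were called with the alternate allele higher (adjusted p = 6.42e-12 and 5.34e-21). Without replicate 4 the share at 46074032 was 50.5% and called (adjusted p = 0.0449), and without replicate 7 the share at 46075416 was 49.4% and called (adjusted p = 0.0305).

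The other genes with ATP5 symbols are not subunits of the enzyme's core. ATP5S, a coupling factor, held SNPs at 68.0% and 71.3%, 16 bp apart on chromosome 7. At the latter, position 40295856, the 7 heterozygous fetuses ran from 61.4% to 79.4% with a median of 73.7% (mean 70.8% ± 6.64, SD), at 56.3 reads per fetus. All 7 lay above 50% (adjusted p = 2.05e-05; exact permutation p = 0.0156, the smallest that 7 fetuses allow), and replicates 1, 2 and 6 stood below the other 4. The missense SNP 7,711 bp away gave 52.5% and was not called. In the 4 fetuses heterozygous at both, the share fell by 25.7 ± 4.45 points (SD) from 40295856 to the missense SNP. ATP5SL, a relative of ATP5S, gave 58.9% at a missense SNP at position 49600732 of chromosome 14, where 11 fetuses ran from 53.6% to 66.3% with a median of 58.8% (mean 58.6% ± 3.48, SD). All 11 lay above 50%, replicate 7 highest (adjusted p = 1.28e-05; exact permutation p = 0.000977, the smallest that 11 fetuses allow).

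ETFDH, which passes electrons from fatty acid oxidation to ubiquinone, held the most SNPs, 26 within 23,911 bp of chromosome 17. Of these 15 were called (57.7%, background 38%), 8 with the reference allele higher and 7 with the alternate, at 35.0% to 58.6%. The F test called 12 (46.2%, background 24.5%). Among SNPs with at least 200 reads 11 of 12 were called (91.7%, background 65.9%), and among shallower SNPs 4 of 14 (28.6%, background 33.3%). By annotation 9 of the 26 lie downstream of a gene and 5 in an intron, and 3 and 1 of these were called. They had at most 212.8 and 141.6 reads per fetus, against 2,382 at the deepest SNP of the gene. Against the median share of all SNPs, to which the backgrounds here do not apply, 20 of the 26 were called, 7 with the reference allele higher and 13 with the alternate. The missense SNP at position 40084811 ran from 54.0% to 58.7% in 11 fetuses with a median of 56.8% (mean 56.5% ± 1.40, SD), at 1,202 reads per fetus. All 11 lay above 50%, replicate 3 highest and replicate 1 lowest (adjusted p = 4.79e-10; exact permutation p = 0.000977). The lowest share was at position 40061535, a splice region SNP heterozygous in all 18 fetuses. It does not have the smallest p of the gene and was chosen here after its values were seen. There the fetuses ran from 22.4% to 43.3% with a median of 35.3% (mean 34.4% ± 5.72, SD), at 70.1 reads per fetus. All 18 lay below 50% (adjusted p = 3.14e-09), with replicate 15 lowest and replicate 2 highest. Of the 26 SNPs 9 differed between fetuses (34.6%, against 15.4% of all SNPs and 35.1% of those with at least 200 reads).

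At 6 SNPs all 18 fetuses were called homozygous for the alternate allele, and SDHA, the flavoprotein of complex II, and UQCRH, the hinge protein of complex III, were seen only at such SNPs. The reference allele made up 1.56% of reads at the missense SNP of SDHA, from 0.732% to 2.88%. At the 3 SNPs of UQCRH it made up 0.951%, 0.279% and 0.389%. It made up 4.64% at position 41207755 downstream of NDUFS7, and 0.986% at the missense SNP of COX4I1 at 11254749.

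By consequence, 49 of 70 synonymous members were called, against 34.4% of all synonymous SNPs, and 17 of 27 missense members, against 41.1%. Among deep SNPs it was 42 of 52 synonymous members (80.8%, against 62.8%) and 13 of 18 missense members (72.2%, near the 69.5% of all deep missense SNPs). Of the 3′UTR members 10 of 11 were called, against 42.4%, and 8 of those 11 lie in NDUFA10. The reference allele was higher at 16 of the 17 called missense members, against 74.6% of all called missense SNPs. The F test called 12 missense members (44.4%, against 28.9% of all missense SNPs), all with the reference allele higher. Among deep missense SNPs it called 55.6% of members, near the 54.9% of all. Missense calls lost against the median share of all SNPs include those of ATP5J, UQCRB, COA1 and UQCRC2 position 19706140. Transitions made up 76.2% of the 143 members, against 78.1% of all SNPs, and 8.39% of members lay within 5 bp of another SNP, against 10.4%. Of the tested members 11 were heterozygous in all 18 fetuses, 6 of them in NDUFS8.

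Counted by role, 58 of 76 tested SNPs in subunit genes (76.3%) and 13 of 30 in assembly factor genes (43.3%) were called, against a background of 38%. Among deep SNPs 52 of 65 in subunit genes were called, against 65.9%, and among shallower SNPs 10 of 25 in assembly factor genes were called, against 33.3%. The median reads per heterozygous fetus were 1,412 and 122.1, so depth differed between these roles, and its part in the counts was not tested. By gene, 23 genes were called only with the reference allele higher (48.9%, against 37.8% of all tested genes), 8 in both directions (against 12.8%), 14 not at all, and 2, COA7 and COX5B, only with the alternate allele higher (4.26%, against 7.82%). Among genes with a deep SNP 18 of 34 were called only with the reference allele higher (52.9%, near the 51.8% of all such genes). Of these 34 genes 8 were called in both directions (23.5%, near 24.1%) and 1 only with the alternate allele higher (2.94%, against 8.85%). With the median share as null, 15 of the 47 genes were called only with the reference allele higher (31.9%, against 20.3%) and 13 only with the alternate (27.7%, against 18.2%).

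Of 49 listed partner genes, which make coenzyme Q, carry phosphate and adenine nucleotides or assemble the complexes and fall outside the rule, 25 held a SNP. Of their 114 tested SNPs 68 were called (59.6%, background 38%), 48 with the reference allele higher (background 28.9%) and 20 with the alternate (background 9.01%). Among partner SNPs with at least 200 reads 51 of 74 were called (68.9%), near the background of 65.9% at that depth. SLC25A3, the carrier that brings phosphate to ATP synthase, gave 9.57% with 11 of 11 fetuses below 50% (mean 9.71% ± 1.51, SD, adjusted p = 6.27e-20). ADCK3, a kinase-like protein of coenzyme Q synthesis, gave 91.2% in 2 heterozygous fetuses (mean 91.0% ± 1.65, SD), while 7 of its 9 called SNPs had the alternate allele higher. COQ6, a hydroxylase of coenzyme Q synthesis, gave 69.9% with 12 of 12 fetuses above 50% (mean 69.8% ± 1.79, SD, adjusted p = 7.31e-16). IMMT, which holds the cristae in shape, gave 59.5% with 7 of 7 above 50% (mean 59.6% ± 1.53, SD, adjusted p = 1.89e-09). By gene, 20 of 25 partners had a called SNP (background 58.5%), and among those with a deep SNP 13 of 16 did (81.3%, background 84.8%). Of the 25, 13 were called only with the reference allele higher (37.8% of all tested genes), 1 only with the alternate (7.82%) and 6 in both directions (12.8%). Against the median share these counts were 6 (24%, against 20.3% of all tested genes), 2 (8%, against 18.2%) and 10 (40%, against 15.8%).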

How the data were processed

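The deposited table holds raw counts: the authors gave, per SNP and fetus, the reads with the reference and with the alternate allele, and a genotype call as text (a value of another kind, also deposited). Per the submitters' notes, paired reads of 100 bp were aligned to Oar v3.1 with STAR and SNPs called from the same reads with GATK 3.4-46. The study's own filter asked for 10 or more reads from both alleles in 5 or more animals. Its columns of test statistic, p-value, higher allele and reference proportion were not used. The table names 1 fetus PS910 and the labels RS910, and these were taken as the same. Sequencing lanes per library are not labelled.

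Shares came from reads of fetuses called heterozygous, summed over fetuses. The likelihood ratio test under a Poisson model (the study's test, there unadjusted) and the moderated quasi-binomial F test (limma 3.58.1, dispersion of at least 1) were adjusted over all tested SNPs. Sign-flip permutation tests (scipy 1.17.1, two-sided, 100000 resamples, seed 1) enumerated all flips, and were thus exact, for up to 16 fetuses, although resampling had been planned from 10. Python 3.11.15, numpy 2.4.6, pandas 2.3.3 and matplotlib 3.10.9 were used. The tests were tried on simulated data. Libraries are separate fetuses: among the 153 pairs the smallest ratio of chi-square to its degrees of freedom was 3.79, and a pair shared at most 63.5% of genotype calls.

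Genes are named in their roles, and 1 member gene is counted but not reported by name here. The top SNP of a gene is that with the smallest likelihood ratio p, which need not be the SNP farthest from 50%. Described fetus by fetus are the 12 top SNPs farthest from 50% among those called with at least 5 heterozygous fetuses, the 4 SNPs with most reads, every stop or splice site SNP, and the called missense SNP farthest from 50% in each role. Genes with 5 or more SNPs are described over all of them. Among top SNPs the last named was that of COX11 at 56.8%, and the next that of ETFDH at 56.5%. Members, lists and rules were chosen with earlier results of these data known. Alternatives tried were the unadjusted test, the F test, the median share as null, minimum reads of 30 and 20, reads sampled to 50 per fetus, SNPs heterozygous in 15 or more fetuses left out, equal weight of fetuses, and each fetus left out. No genome was used. Depth limits precision: a SNP of 65 reads resolves far less than a SNP of 16,784.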

Additional observations from a re-analysis of the deposited data

Results flagged for a closer look

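At 79 member SNPs with 4 to 10 heterozygous fetuses, the gap between the most extreme fetus and its neighbour was compared with the whole range, and 3 passed the limit. Chance passes it in about 1 in 20 groups, or 3.95 of the 79, so this count is no more than chance gives. At the SNPs of SDHB and ETFDH the fetuses differed by less than counting error (dispersion, the variance between fetuses over that of counting, 0.144 and 0.601), and at that of NDUFV1 by more (21.9, chi-square test, adjusted p = 3.15e-16). At NDUFV1 position 44748018 replicate 14 had 60.7% of reads from the reference allele, against 72.2% to 74.3% in the other 4. At SDHB position 248384537 replicate 6 had 92.7%, against 93.5% to 94.0% in the other 5. At ETFDH position 40061828 replicate 8 had 60.6%, against 53.1% to 55.9% in the other 5.

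Reads of fetuses called homozygous were not used in any test. At 71 of the 143 member SNPs they held more than 3 reads of the other allele in all, the limit that a count of 0 allows. Given here are the 6 SNPs with no heterozygous fetus and the 3 others at which the other allele passed 1% of these reads, a limit chosen after seeing the data. In fetuses called homozygous reference the alternate allele made up 5.18% at SDHB position 248384537, 4.59% at COX7A2 position 43974946 and 1.92% at NDUFA12 position 131074982. In fetuses called homozygous alternate the reference allele made up 4.64% at NDUFS7 position 41207755, 1.56% at SDHA, 0.986% at COX4I1 position 11254749, and 0.951%, 0.279% and 0.389% at UQCRH. The median over member SNPs was 0.0458% in homozygous reference and 0.0959% in homozygous alternate fetuses.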

How the results depend on the processing

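With the reads of each fetus sampled to 50, 42 member SNPs were called (35 with the reference allele higher, 7 with the alternate; 26.3% of all SNPs), 21 genes had a called SNP and 3 SNPs differed between fetuses. Fewer reads are the construction of this alternative. Of the 42, 40 were among the 90. Against the median share of 51.9% as null, ATP5A1 position 46074032, at 50.4%, was called with the alternate allele higher (adjusted p = 6.42e-12), because its share lies between 50% and that null, and position 46075416 was called too (adjusted p = 5.34e-21). Under both nulls 65 SNPs were called, and 19 only under the median. The other alternatives for all reads gave between 74 and 100 called SNPs and between 28 and 35 genes. Leaving out each fetus gave 85 to 93 called SNPs, 32 to 35 genes, 35 to 41 SNPs that differed between fetuses, and a median share of 51.8% to 52.1%. An alternative chosen after seeing the data left out 3 member SNPs at which homozygous fetuses had over 1% of the other allele, and 87 SNPs and 32 genes were called.

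Of the shares described fetus by fetus, 181 comparisons with other alternatives kept direction and side of the threshold, 12 lost the call, 1 gained it and 1 turned. Leaving out a fetus kept 406, lost 5 (NDUFS7 position 41213318 and COA1) and gained 2 (ATP5A1). The F test lost NDUFS7 position 41213318, UQCRB and COA1. The median share as null lost ATP5J, UQCRB, COA1 and COX4I1 position 11253887, and sampling to 50 reads lost ATP5J, UQCRB, COA1 and both SNPs of COX4I1. The cause was not tested.

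Genotypes rest on the RNA reads that were counted, with no genotype from DNA. Only genes with a SNP can be seen. Depth limits the shallow SNPs: at 24.2 reads per fetus a shift of a few points is not detectable in a single fetus.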
